A study of Mus musculus with 6 samples.

Results

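Hlf, Tef and Dbp encode the activators of the PAR bZIP family of transcription factors, and Nfil3 encodes a related bZIP repressor. Their surroundings in the chromatin state map of wild-type mouse hematopoietic stem cells (HSCs) are described here. The members were all segments of the map that overlapped the gene record of Hlf, Tef, Dbp or Nfil3 extended by 50 kb on each side. There were 242 such segments of 850831 in the map, 84 around Hlf, 65 around Tef, 56 around Dbp and 37 around Nfil3. The series measured the histone variant H3.3 by ChIP-seq in HSCs from bone marrow of C57BL/6 mice. It had 2 wild-type and 2 HIRA knockout (HIRA KO) ChIP libraries and 1 input for each genotype. HIRA is a chaperone that places H3.3 into chromatin outside replication. Mice of all groups are described with the same treatment, 2 doses of 20 ug of poly(I:C), used to switch on the deletion of Hira in blood cells, and HSCs were taken on day 7 after the first dose. The labels name no Cre driver and no age.

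The values analysed were 1 division of the mm10 genome into 18 numbered states in bins of 200 bp, tied to wild-type HSC H3.3 by its file name alone. It held no read counts, no replicate and no HIRA KO column, so its depth is unknown, no test over samples was possible and all comparisons below are descriptions. The states carry no names. In the map as a whole, states 3, 4, 5, 6 and 9 were those most concentrated at the 21263 listed transcription starts of protein-coding genes, at 33.7, 43.8, 45.3, 56.7 and 42.8 times their share of bases. States 7 and 8 lay inside genes and toward their 3′ ends. Over 13412 genes of at least 5 kb, the mean share of state 8 was 2.85% in the first 10% of the gene length and 30.5% in the last 10%, and that of state 7 was 0.276% and 2.84%. State 18 was the commonest state, with 55.0% of bases, followed by state 17 with 15.2%. As a check of the label, 9 of 9 HSC marker genes, such as Kit, Meis1 and Gata2, had an end of their record in states 3 to 6, against 1 of 18 markers of B cells, T cells, neutrophils, red cells, stroma, endothelium and hepatocytes, the exception being Apoa1. The share over all protein-coding genes was 47.6%. Within 1 kb of an end, 5 of the 18 had a bin in these states, against 51.8% of all genes and again 9 of 9 HSC markers. Klf1 had 54.4% of its record in these states, though neither end.

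The PAR bZIP proteins, named for a domain rich in proline and acidic amino acids, bind DNA as dimers at D-box sites and activate transcription there, whereas NFIL3 (E4BP4) represses through the same sites. Dbp, Tef and Nfil3 are outputs of the circadian clock, and Dbp is a classical direct target of CLOCK and BMAL1. HLF is a marker and regulator of HSCs, and a fusion of TCF3 with HLF drives a rare leukemia. NFIL3 is needed for the development of natural killer cells and other innate lymphoid cells.

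The 4 genes did not share 1 arrangement of states. The listed start of Hlf lay in state 5, both listed starts of Tef lay in state 4, that of Dbp in state 3 and that of Nfil3 in state 9. An end of the gene record lay in states 3 to 6 in 4 of 4 members, against 47.6% of 21779 protein-coding genes, and in states 9 to 11 in 0 of 4, against 23.9%. By listed start, 3 of 4 members lay in states 3 to 6 (51.6% of 17492 genes) and 1 of 4 in states 9 to 11 (18.9%). With 4 genes these counts describe the members and no more. States 3 to 6 covered 7.51% of the Hlf window (95% Wilson interval 5.86 to 9.59), 11.3% of the Tef window (9.02 to 14), 10.1% of the Dbp window (7.79 to 13) and 2.77% of the Nfil3 window (1.71 to 4.45). The median over windows of all protein-coding genes was 2.49%, so Nfil3 was near it and the 3 PAR bZIP genes were above. The intervals count bins, which are not independent of their neighbours, and so understate the error.

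Hlf (mm10, chromosome 11, 90336535 to 90390917, minus strand, 54.4 kb) was the only gene record of the table in its 154.4 kb window. Its listed start lay in a run of states 3 to 6 that reached from -0.7 to 7.7 kb relative to the start. At 8.4 kb this run was longer than 99.8% of the 15998 runs of these states in the map, whose median was 1.8 kb, and 24 runs were longer. It was not uniform but made of 22 segments. Stretches of alternating states 3 and 5, the first of which lay over the start at the upstream edge, took turns with stretches of states 4, 5 and 6. Of the 28 runs of 8 kb or more, 2 had more segments, and their median was 15. The 250 bases before the start, at chr11:90390918-90391167 on the minus strand, lay in state 5 and are shown because this long run begins over a promoter rich in CpG. They held 26 CpG, more than 87.7% of 21263 promoter windows of protein-coding genes, whose median was 10. Here and below capitals mark matches, on either strand, to the motifs searched: TGACGTCA (the cyclic AMP response element), GGGCGG (the GC box), CACGTG (the E-box bound by CLOCK and BMAL1), CCAAT, and the D-box forms TTATGTAA, TTACGTAA and TTATGCAA. The Hlf window held 3 GC boxes and 1 cyclic AMP response element, which ended 2 bases before the start. Of all promoter windows, 42.6% held a GC box and 1.92% that element. A match is a run of letters and no evidence of binding.
Hlf: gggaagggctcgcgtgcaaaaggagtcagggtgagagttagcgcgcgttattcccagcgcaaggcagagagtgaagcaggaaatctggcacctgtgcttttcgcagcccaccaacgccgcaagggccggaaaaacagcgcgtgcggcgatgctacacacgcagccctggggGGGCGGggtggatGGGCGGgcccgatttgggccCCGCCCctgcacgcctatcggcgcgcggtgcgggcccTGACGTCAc

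Beyond this run, most of the Hlf record was a fine alternation of states 7, 8 and 16, with short segments of state 17. It held 2 further runs of states 3 to 6, of 1.0 kb in states 3 and 5 (10.7 to 11.7 kb from the start) and of 0.8 kb in state 5 (12.5 to 13.3 kb). The record was divided into 3 equal parts from the start. In the 5′ part states 3 to 6 covered 52.5% of bases, state 7 24.3% and state 8 12.1%. In the middle part state 7 covered 40.8% and state 8 27.2%, and in the 3′ part they covered 39.7% and 42.3%, with no base in states 3 to 6 in either. State 7 took 19 kb of the record, or 34.9% (95% Wilson interval 29.5 to 40.8), where it covered 0.348% of the map. The longest of its 11 segments, 5.2 kb near the 3′ end, was among the 13 of 13759 state 7 segments in the map that were at least that long. Among 6188 genes of 25 to 100 kb, 3 had a higher share of state 7 in the record (Rbm39, Myb and Dapp1, named after their values were seen), and 58.4% had none. Of the 22 borders of state 7 in the Hlf window, 11 were with state 8 and 9 (40.9%) with state 16. Over the map these neighbours made up 66.7% and 23.8% of state 7 borders. The Hlf record was also among the most finely divided: it had 10.7 borders between states per 10 kb, against a median of 4.44 for genes of 25 to 100 kb, and 15 of the 6188 genes had more.

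Over the whole window, state 7 covered 12.3% for Hlf (10.2 to 14.8), 2.58% for Tef (1.59 to 4.14) and no base for Dbp or Nfil3. The median of all windows was 0.274%, and 45.5% of windows had none. Hlf ranked 14 among the 21779 genes. The 13 genes above it, named after their values were seen, were Etv6, Lamtor3, Meis1, Adgrl4, Romo1, Atp5b, Elk3, Dapp1, Nfs1, Ptges3, Dnajb14, Cdk17 and Naca. Many of them share a window, so that with Hlf they form 8 separate loci. Etv6 and Meis1, with 22.7% and 18.4%, encode transcription factors needed by HSCs. They were picked from the 13 for that role, and the share of such genes was not counted. Lamtor3 (19.1%), Romo1 (15.9%) and Atp5b (15.3%) were among the others. These are shares of windows, which also hold neighbouring genes. The Romo1 record spans only 1.64 kb, and its window takes in the whole record of Rbm39, with 48.4% in state 7. The Lamtor3 record spans 10.2 kb, and its window takes in most of the record of Dapp1, with 35.2% in state 7. At Hlf, by contrast, all state 7 of the window lay in its own record. The 9 HSC marker genes had state 7 shares between 0.707% for Gata2 and 18.4% for Meis1, with a median of 1.92% and with Kit, the stem cell factor receptor, at 9.68%. Hlf thus exceeded 8 of the 9. The 21 clock genes ranged from 0 to 4.28%, with a median of 1.02%, and the 18 markers of other cells did not exceed 1.94%.

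**Figure D1:**
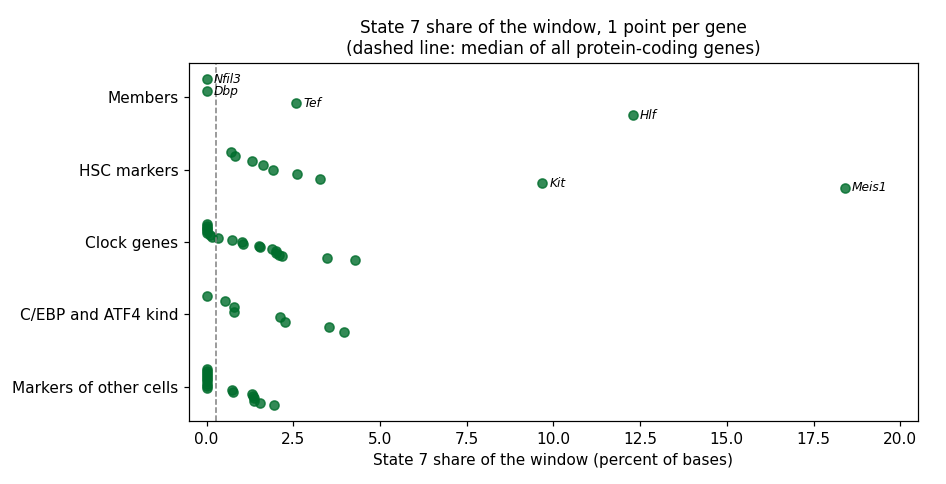
Share of the window in state 7, in percent of bases on the x axis, with 1 point per gene in 5 groups of genes. Hlf at 12.3% lies with Meis1 and Kit, while Tef, Dbp, Nfil3 and all clock genes lie below 5%.

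Outside its record, Hlf had 1 further run of states 3 to 6, of 1.4 kb in states 5 and 6, from -27.9 to -26.5 kb relative to the start. No gene record of the table touched it. It was flanked by state 16 on both sides, and the rest of the upstream side was mostly state 17. Beyond the 3′ end the window passed through states 16 and 17 into state 18, which covered 21.1% of the whole window, and ended in state 17. No base was in states 9 to 11, a share of 0 that tied with other gene windows at rank 16316 of 21779 from the highest.

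Tef (chromosome 15, 81802673 to 81826863, plus strand, 24.2 kb) lay in a window without any base in states 9 to 11 or in state 18. Counted from the highest share, all gene windows with none tied at rank 16316 of 21779 for states 9 to 11. For state 18 they tied at rank 20504. The table lists 2 starts for Tef, 8.74 kb apart, and each lay in a state 4 segment of 1.0 kb. Of 2761 protein-coding genes with at least 2 listed starts, 43.1% had all of them in states 3 to 6 and 4.67% had all in state 4. The runs around the starts differed. The first start lay in a run of 1.4 kb made of states 4 and 6, followed inside the gene by 0.6 kb of state 2. Its state 4 segment also held the listed start of a noncoding gene on the opposite strand, so that run is not of Tef alone. The second start of Tef lay in a run of 3.0 kb made of states 3, 4, 5 and 6, in which state 3 covered the upstream side. Between the runs, states 16 and 17 alternated. The 250 bases before each start are shown to compare the alternative promoters, and each held 1 E-box, found in 6.63% of all promoter windows, 1 GC box and at least 1 CCAAT on either strand, found in 35.4%. The first window held 8 CpG, more than 44.4% of promoter windows, and the second 20, more than 76.3%. They lie at chr15:81802423-81802672 and chr15:81811164-81811413 on the plus strand, in state 4 and in states 3 and 4.
Tef start 1: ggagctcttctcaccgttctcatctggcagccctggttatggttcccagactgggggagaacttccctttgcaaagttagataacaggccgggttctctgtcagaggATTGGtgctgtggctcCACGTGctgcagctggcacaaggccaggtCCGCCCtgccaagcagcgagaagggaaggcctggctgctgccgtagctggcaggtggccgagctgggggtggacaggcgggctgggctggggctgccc
Tef start 2: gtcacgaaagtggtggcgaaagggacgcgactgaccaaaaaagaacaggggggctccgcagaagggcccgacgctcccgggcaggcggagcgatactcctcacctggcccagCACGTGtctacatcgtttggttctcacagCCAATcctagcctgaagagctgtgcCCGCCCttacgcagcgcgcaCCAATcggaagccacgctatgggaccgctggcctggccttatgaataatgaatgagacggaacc

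Along Tef, divided into 3 equal parts, state 16 covered 44.6% and states 3 to 6 20.6% of the 5′ part. In the middle part, which holds the second start, states 3 to 6 covered 23.1% and state 8 44.6%. In the 3′ part state 8 covered 95% and state 7 4.96%. State 16 took 16.5% of the whole record (11 to 24.2), more than in 94.4% of genes. State 8 covered 44.1% of the window (40.2 to 48.0), a higher share than 97.5% of gene windows, and its longest segment, 21.6 kb, lay in the neighbour Zc3h7b, which encodes a zinc finger protein. The start of Tob2, an antiproliferative factor gene, lay in a state 3 segment of 2.6 kb within a run of 5.2 kb, longer than 98.5% of runs. Phf5a, a splicing factor gene, had an end in state 5, in a run of 3.0 kb. Another run of states 3 and 5, of 1.4 kb, began 24.4 kb beyond the second start of Tef and touched no gene record.

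Dbp (chromosome 7, 45705100 to 45710203, plus strand, 5.10 kb) had the plainest start of the 4 genes. It lay inside 1 unbroken state 3 segment of 4.4 kb, from -1.4 to 3.0 kb relative to the start. State 3 segments had a median of 0.6 kb, and 8 of 14160, this one included, were at least that long. No other state interrupted it, in contrast to the run at Hlf. Its upstream side also covered the 3′ end of the record of Car11, a carbonic anhydrase-related gene. State 3 covered 60.8% of the Dbp record (41.6 to 77.1), and 72 genes had a higher share. Beyond it came states 1, 16 and 17, and state 8 at the 3′ end, where the record overlaps that of Sphk2, which encodes a sphingosine kinase. The 250 bases before the start, at chr7:45704997-45705246 on the plus strand, are shown as the sequence under that block. They held 16 CpG, more than 65.9% of promoter windows, with 1 GC box and 1 CCAAT on the reverse strand. The gene record begins 147 bases before the listed start.
Dbp: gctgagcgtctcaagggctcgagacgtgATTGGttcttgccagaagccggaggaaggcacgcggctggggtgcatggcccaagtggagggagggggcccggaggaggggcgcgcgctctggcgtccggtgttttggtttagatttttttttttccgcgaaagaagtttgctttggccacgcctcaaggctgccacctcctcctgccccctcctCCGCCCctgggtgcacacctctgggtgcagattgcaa

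The Dbp window was the most mixed, with 14 of the 18 states. Car11 has its nearest listed start 5.28 kb before that of Dbp, and this start lay in a state 9 segment of 1.4 kb that followed 2.0 kb of state 11. Between the state 9 and state 3 segments lay 2.6 kb of state 17 and 0.2 kb of state 16. Farther upstream, Ntn5, which encodes a netrin, lay wholly in state 18. Downstream, the starts of Rpl18, a ribosomal protein gene, and of Sphk2, 69 bases apart on opposite strands, shared a state 5 segment in a run of 3.4 kb. Sult2b1, a sulfotransferase gene, had 1 listed start in state 3 and the other in state 11. A state 1 segment of 2.4 kb, longer than 97.4% of state 1 segments, lay within the Sec1 record. States 9 to 11 covered 9.14% of the window (6.96 to 11.9) and states 3 to 6 10.1%, so that windows of this width hold states of neighbours as well as of the gene.

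Nfil3 (chromosome 13, 52967209 to 52982878, minus strand, 15.7 kb) was the only member with a listed start in state 9, as 1461 of 17492 genes (8.35%) had. The segment spanned 4.4 kb, from -1.0 to 3.4 kb relative to the start, and 25 of 3391 state 9 segments, this one included, were at least that long. On its downstream side it bordered 0.6 kb of state 11, and on its upstream side 1.0 kb of state 3, which began 0.962 kb from the listed start. State 3 on one side and state 11 on the other flanked 82 state 9 segments (2.42%). The Nfil3 record extends 1.84 kb upstream of the listed start, and its upper end lay in that state 3 segment. Of the 1461 genes with a start in state 9, 63 (4.31%) had a record end in states 3 to 6. The 250 bases before the start, at chr13:52981040-52981289 on the minus strand, are shown as the sequence under the state 9 block. They held 43 CpG and 81.6% G and C, each above 99.1% of promoter windows, with 9 GC boxes, some of them overlapping in a tandem array, and 1 CCAAT on the reverse strand. The median number of CpG was 18 in windows of starts in state 9, 14 in state 3, 17 in states 4 and 5, and 19 in state 6.
Nfil3: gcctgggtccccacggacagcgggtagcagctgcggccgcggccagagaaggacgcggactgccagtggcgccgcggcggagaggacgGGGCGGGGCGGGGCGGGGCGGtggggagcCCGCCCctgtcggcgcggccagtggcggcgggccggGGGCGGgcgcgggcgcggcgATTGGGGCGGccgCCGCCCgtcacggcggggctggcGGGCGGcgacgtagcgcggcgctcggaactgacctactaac

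**Figure D2:**
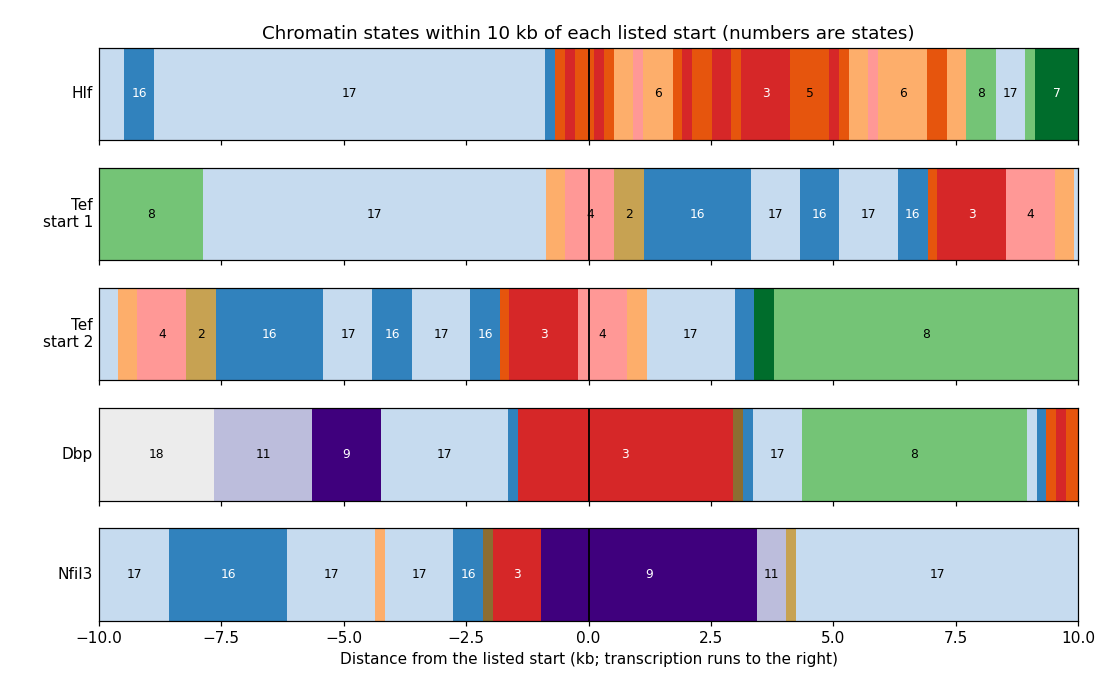
States within 10 kb of each of the 5 listed starts, with distance from the start in kb on the x axis, state numbers written in the wider segments and a black line at the start. Hlf shows many short segments of states 3 to 6, Tef 2 blocks around its 2 starts, Dbp 1 block of state 3, and Nfil3 a state 9 block with state 3 beside it.

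States 7 and 8 together covered 8.88% of the Nfil3 record (4.36 to 17.2), against 62.2% at Hlf and 49.9% at Tef. Over all protein-coding genes the median was 0, and 57.3% of genes had less than Nfil3. State 17 covered 83.6% of the middle of 3 equal parts of its record and 73.3% of the 3′ part, and state 8 covered 1.39 kb at the 3′ end, with no base in state 7. Over the window state 17 covered 64.5% (60.5 to 68.3), more than in 98.9% of gene windows. The nearest protein-coding neighbour, Auh, which encodes a mitochondrial hydratase that also binds RNA, had its start in state 6 in a run of 2.0 kb. The window also held 3 noncoding gene records, whose listed starts lay in states 17 and 18. A segment of 0.2 kb in state 6 lay from -4.4 to -4.2 kb relative to the Nfil3 start and touched no gene record.

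**Figure D3:**
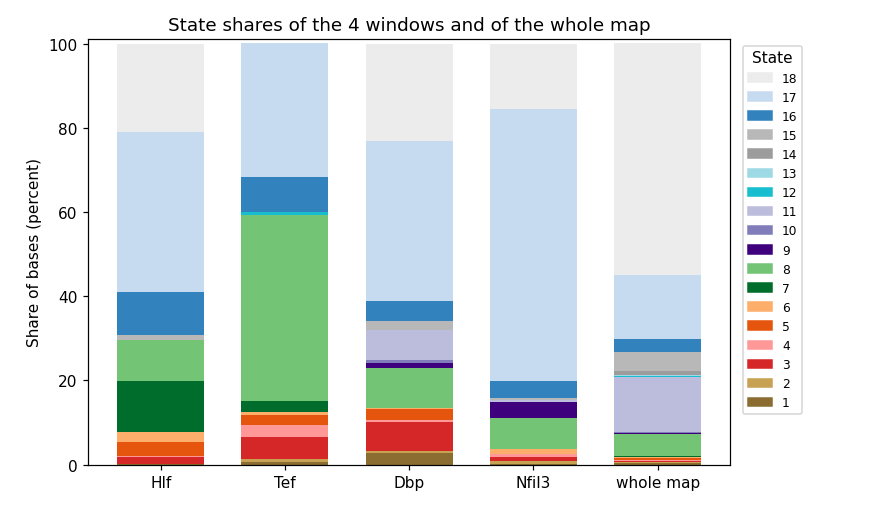
Share of bases in each of the 18 states, in percent on the y axis, for the windows of Hlf, Tef, Dbp and Nfil3 and for the whole map. State 7 is widest in the Hlf bar (12.3%), state 8 in the Tef bar (44.1%), state 3 in the Dbp bar (6.85%) and state 17 in the Nfil3 bar (64.5%).

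None of the D-box forms searched was found in the 5 promoter windows of the members (0 of 5), where 0.795% of all promoter windows held TTATGTAA, 0.757% TTATGCAA and 0.127% TTACGTAA. This says only that these letters are not in these 250 bases.

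Compared with each other, the windows differed by 21.0% of bases between Hlf and Dbp, the closest pair, and by 53.5% between Tef and Nfil3, the most distant. This distance is the share of bases that would have to change state for the state shares to match. The median distance to all other protein-coding genes was 41.6% from Hlf, 53.9% from Tef, 39.0% from Dbp and 49.4% from Nfil3. The genes nearest to Tef were Trnau1ap, Cs and Pip4k2b, at 3.98, 4.23 and 4.31%. Those nearest to Nfil3 were Abhd10, Cx3cl1 and Usp46, at 6.71, 6.72 and 7.14%, and those nearest to Dbp were Mif, Zpld2 and Chmp2a, at 10.0, 10.3 and 10.5%. Hlf had the most remote neighbours, Nlgn2, A430057M04Rik and Fbxl18, at 11.6, 12.4 and 12.5%. Their state 7 shares of 4.01, 3.84 and 1.12% stayed below that of Hlf. Of the 3 genes nearest to Nfil3, Abhd10 had 3.36% in states 9 to 11 and the other 2 had none, against 4.32% for Nfil3.

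Genes that work with the family were counted from lists chosen with earlier results of these data known, so no test was made. For 17 of 21 clock genes (81.0%) at least 1 record end fell in states 3 to 6 (47.6% of all genes), and for 5 (23.8%) in states 9 to 11 (23.9% of all genes). Per1, a clock repressor gene, had its start in state 3 and 37.0% of its record in states 3 to 6, and Nr1d1, which encodes the repressor REV-ERB alpha, had its start in state 3 and 26.6%. Both share with Dbp a start in state 3, and so did Fbxl21 and, by a listed start, Rorb. Of all genes with a listed start, 12.6% had one in state 3 and 10.9% in state 4. The starts of Per3 and Nr1d2 lay in state 4, as those of Tef did, and those of Cry1, Cry2, Ciart and Arntl, the gene of BMAL1, lay in state 6. The starts of Npas2, Rora and Bhlhe41 lay in state 9, the state of the Nfil3 start. At Nfil3 the upper record end fell in state 3, whereas neither end of Npas2, Rora or Bhlhe41 fell in states 3 to 6.

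Of 9 genes known as targets of PAR bZIP proteins in liver, kidney or brain, 3 (33.3%) had an end in states 3 to 6, where 47.6% of all genes did. By listed start the count was 4 of 8, beside 51.6% of all genes. The 3 were Pdxk (pyridoxal kinase), Alas1 (the first enzyme of heme synthesis) and Abcb1b (a drug efflux pump). Por, which encodes cytochrome P450 reductase, had its listed start in state 3 although neither end of its record lay in states 3 to 6. Abcb1a was the one (11.1%) with an end in states 9 to 11, beside 23.9% of all genes. Cyp7a1, the rate-limiting enzyme of bile acid synthesis, had both ends in state 18, and Cyp2a5 had ends in states 14 and 18. Of 6 genes reported downstream of NFIL3 in lymphoid and myeloid cells, 3 had an end in states 3 to 6 (among them Id2 and Tox) and 3 in states 9 to 11 (among them Eomes and Tox). Over all genes the shares were 47.6% and 23.9%, and the first count is near its share. Il3, the cytokine gene for which NFIL3 is named, had both ends in state 18. Of 8 other bZIP genes of the C/EBP and ATF4 kind, 6 (75.0%) had an end in states 3 to 6, beside 47.6% of all genes. Among the 8, Ddit3 had 30.8% of its record in state 7, close to the 34.9% of Hlf, in a record of a different length, and Cebpa, with its start in state 9, was the one (12.5%) with an end in states 9 to 11, beside 23.9%.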

How the data were processed

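H3.3 ChIP-seq libraries were made from HSCs in 4 groups (wild type or HIRA KO, ChIP or input). Per the file headers, the deposited values are state numbers from an 18-state segmentation in bins of 200 bp, with states sorted by emission. Track and file names point to ChromHMM; for its version, its input signals and any pooling of replicates, nothing is given in the sources used here. Per the submitters' processing notes, the tools were Bowtie2, deepTools, MACS2 and HOMER and the build mm10. Dense and expanded tracks gave the same state in 100% of bins.

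Gene records and promoter sequences came from the RefSeq tables of GRCm38.p6, the assembly of mm10. Of 21900 protein-coding genes, 21779 on mapped sequence were used, leaving out those in the unassembled first 3 Mb, and 17492 had a listed start. Exons and introns were not used here. Windows were gene records with 50 kb on each side, clipped at the edges. Shares carry 95% Wilson intervals over bins. A gene's place is the percent of genes with a lower share. Named genes were the members, their protein-coding neighbours, the 3 genes nearest in state shares and the list genes. Genes with more state 7 than Hlf were named in addition, after their values were seen. Members and lists were chosen with earlier results of these data known. A planned comparison of the proteins was not made. Values of some neighbouring and list genes are not reported here. The script was tested on simulated segments. Python 3.11.15, numpy 2.4.6, pandas 2.3.3 and matplotlib 3.10.9 were used.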

Additional observations from a re-analysis of the deposited data

How the results depend on the processing

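The map has no replicates and no depth, so these values say only how the description moves with its settings. No paired analysis was possible because the map is 1 segmentation with no column for a replicate. The expanded file, segments kept whole at the edges and leaving out segments of 1 bin kept each result they were run on within its interval or count. The width of the window changed the shares of states 3 to 6. With a flank of 25 kb they were 9.77% for Hlf, 7.82% for Tef and 16.7% for Dbp, and with 100 kb 5.58% for Hlf, 7.02% for Dbp and 1.48% for Nfil3. In the gene record alone they were 17.5% for Hlf, 14.6% for Tef, 60.8% for Dbp and 5.60% for Nfil3. The percent of genes with a lower share was 85.0 for Hlf, 94.0 for Tef, 91.9 for Dbp and 52.9 for Nfil3. It became 87.7, 82.2, 96.8 and 41.5 with 25 kb, 80.4, 93.2, 87.1 and 36.9 with 100 kb, and 89.9, 96.1, 94.7 and 65.1 among all annotated genes, so Nfil3 moved to either side of the middle. The share of states 9 to 11 for Dbp was 6.17% with 25 kb, 14.8% with 100 kb and 0% in the record, and for Nfil3 7.61% with 25 kb and 31.9% in the record. Their places by that share, 60.4 and 45.0 percent of genes lower, became 55.9 and 59.7 with 25 kb and 70.3 and 44.3 with 100 kb, and that of Dbp 59.8 among all annotated genes. Over all genes, 29.0% had states 9 to 11 within 1 kb of an end, 34.5% in any bin of the record and 18.9% at a listed start, and for states 3 to 6 any bin gave 56.5% and starts 51.6%. In states 9 to 11, the members numbered 1 of 4 in place of 0 within 1 kb, and 1 of 4 by starts. Clock genes there numbered 8 of 21 (38.1%) with any bin and 3 of 16 by starts. Target genes of PAR bZIP proteins numbered 5 of 9 (55.6%) in states 3 to 6 with any bin, and 2 of 9 (22.2%) in states 9 to 11 both within 1 kb and with any bin. Genes downstream of NFIL3 numbered 1 of 4 in each class by starts. Counts by listed starts were added after seeing the data, and fewer genes have one. By Euclidean distance 1 of the 3 nearest genes was shared for Hlf and 1 for Dbp, and 0 were shared for any member with the record alone.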
